A study of Homo sapiens with 12 samples.

Results

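The 45 genes described here encode lysosomal hydrolases and lysosomal membrane and accessory proteins other than the cathepsins. They were taken by name from a list chosen with earlier results of these data known. All 45 were found among the 54553 genes quantified, and all 45 passed the filter on low counts that left 18047 genes for testing. By role they comprise 12 glycosidases, 5 sulfatases (the heparan sulfamidase SGSH included), 7 hydrolases of lipids, phosphates, thioesters or peptides, 3 activator or lipid-binding proteins, 8 structural or membrane glycoproteins, 8 channels and transporters, and 2 sorting receptors.

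RNA was sequenced from Caco-2 cells, an established human colorectal adenocarcinoma line, labelled wild type in all 12 libraries. Rich medium was EMEM with 1 g/L glucose, 2 mM glutamine and 20% fetal bovine serum. Depleted medium was DMEM with 0.1 g/L glucose, 0.2 mM glutamine and 1% serum, given for 48 h, so the base medium changed along with glucose, glutamine and serum. In each medium, sub-confluent cells received vehicle or 100 nM bafilomycin A1 for 48 h, with 3 libraries in each of the 4 groups: rich vehicle, rich BafA1, depleted vehicle and depleted BafA1. Both media held pyruvate and non-essential amino acids, and whether the replicates are separate cultures is not stated in the labels. The spread behind each p-value may therefore be only technical.

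Lysosomes degrade macromolecules in an acidic lumen that the vacuolar proton pump maintains, and bafilomycin A1 inhibits that pump. Soluble hydrolases are tagged with mannose 6-phosphate and carried from the Golgi by sorting receptors. Heavily glycosylated membrane proteins line the limiting membrane, and channels and transporters export the products of digestion. In many cell types the MiT/TFE transcription factors (TFEB, TFE3, MITF and TFEC) raise lysosomal genes together through the E-box CACGTG within the CLEAR element when nutrients are scarce.

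Reads assigned to genes numbered 12969814 in rich vehicle 1 and 33859998 to 51649213 in the other 11 libraries. Rich vehicle 1 also had 17492 genes detected against 22761 to 24439 elsewhere. Rich BafA1 3 stood nearer to depleted vehicle than the other 5 rich libraries did: its Spearman correlation over genes with depleted vehicle 1, 2 and 3 was 0.931, 0.928 and 0.930, whereas rich BafA1 2 had 0.927, 0.925 and 0.926. Member calls that ended without rich BafA1 3 are stated as such, and for LAMP3 the log2 fold changes without it are given too. Of 10 colon epithelium markers 7 averaged at least 1 TPM, whereas CDX1, KRT20 and GPA33 were near 0. Their summed level was 4694 to 7630 TPM in rich vehicle, 2830 to 4214 TPM in rich BafA1, 2406 to 2587 TPM in depleted vehicle and 1261 to 1961 TPM in depleted BafA1, and its part in the results was not tested. KRT8 (group means 3492, 1754, 1212 and 584 TPM) and KRT18 (1650, 847, 462 and 275 TPM) made up most of that sum. EPCAM and CDH17 fell in the same order of groups. VIL1 (62.2, 43.0, 47.4 and 35.2 TPM), CDX2 (24.9, 43.7, 39.5 and 29.8 TPM) and CDH1 (415, 346, 361 and 394 TPM) did not follow that order. In such bulk libraries, fewer cells of a type and less RNA per cell cannot be told apart. Of the macrophage, dendritic cell, melanocyte, fibroblast and endothelial markers, 2 of 11, 0 of 6, 1 of 5, 3 of 7 and 1 of 5 averaged at least 1 TPM.

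The 45 genes took 0.480% to 0.780% of the reads of a library. In each group, the library numbered 2 had the highest share, at 0.703% in rich vehicle, 0.704% in rich BafA1, 0.780% in depleted vehicle and 0.740% in depleted BafA1. It was the highest of its 3 libraries for 43 of 45 members in rich vehicle, 25 in rich BafA1, 42 in depleted vehicle and 35 in depleted BafA1. Over all genes tested, the library numbered 2 was the highest of its group for 36.5%, 33.0%, 36.2% and 31.0% of genes in the same order. Its part in the results was not tested, and values without it are given for some members.

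Per transcript length, the most abundant member was PSAP, the precursor of the saposins that help hydrolases reach sphingolipids, at a mean of 749 TPM over the 12 libraries. NPC2 (265 TPM), the tetraspanin gene CD63 (262 TPM) and LAMP1 (165 TPM) followed. The leading member of the glycosidases was NEU1 at 151 TPM, of the sulfatases IDS at 24.9 TPM, of the lipid and other hydrolases PPT1 at 85.9 TPM, of the channels and transporters CLN3 at 61.8 TPM and of the sorting receptors M6PR at 158 TPM. At the other end were the calcium channel gene MCOLN1 at 5.02 TPM, IDUA at 1.66 TPM and GPNMB, a glycoprotein of pigment cells and macrophages, at 0.191 TPM. This order is that of the means over all libraries and changed between groups. In the plot of TPM by gene, LAMP3 went from a group mean of 1.18 TPM in rich vehicle to 34.5 TPM in depleted BafA1, and PPT1 from 189 to 28.7 TPM.

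**Figure D1:**
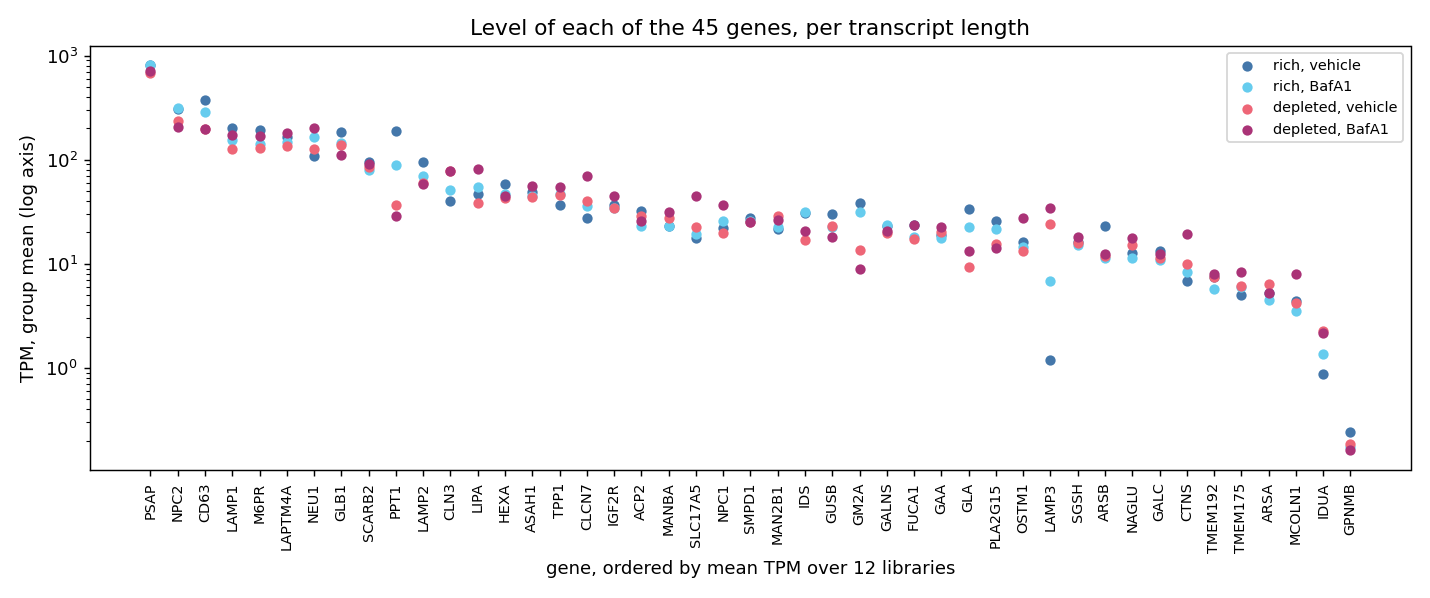
Mean TPM (log axis) of each of the 45 genes in the 4 groups, with genes ordered along the horizontal axis by their mean over 12 libraries. Each point is the mean of 3 libraries. PSAP led in every group, and the points of LAMP3 and PPT1 were spread the most widely among genes above 10 TPM.

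The first comparison asked what blocking the proton pump did in rich medium. The sialidase gene NEU1, the membrane glycoprotein gene LAMP3 and the lysosomal membrane protein gene CLN3 rose, while PPT1 and ARSB, which encode a thioesterase and a sulfatase, fell. Thus 3 of 45 members rose, or 6.67%, beside 6.15% of all genes tested, and 2 fell, or 4.44% beside 4.78%. In this fit both shares were close to the background. The members' median log2 fold change was 0.16 with 31 of 45 above 0, where all genes tested had a median of 0.02 with 51.7% above 0. Leaving out rich vehicle 1 or 3 left 0 members called higher (beside 4.68% and 7.08% of all genes tested). Leaving out rich vehicle 2 gave 11 (24.4%, beside 7.63%). Those added without rich vehicle 2 were MAN2B1, NPC1, GAA, CTNS, CLCN7, TPP1, SMPD1, IDUA and TMEM175, and LAMP3 was no longer called. The number called lower was 0 without rich vehicle 2 or rich BafA1 3 (beside 6.67% and 1.91% of all genes tested). It was 1 (2.22%) without rich vehicle 1, rich BafA1 1 or rich BafA1 2 (beside 3.53%, 2.27% and 2.75%). The edgeR fit of only the 6 libraries of this comparison called 0 members in either direction (beside 1.75% of the genes it tested higher and 1.21% lower). The DESeq2 test on all 12 called 4 higher and 2 lower (8.89% and 4.44%, beside 8.87% and 7.7% of all genes). An unadjusted edgeR p under 0.05 was found for 9 and 2 members, beside 2602 and 2186 of the 18047 genes tested.

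In depleted medium, bafilomycin A1 raised the acid lipase gene LIPA, the chloride transporter subunit gene OSTM1 and the sialic acid exporter gene SLC17A5, and lowered GM2A and NPC2, which encode lipid-binding proteins. These were 3 of 45 higher (6.67%, beside 5.5% of all genes) and 2 lower (4.44%, beside 5.91%). DESeq2 called 4 higher and 4 lower (8.89% each, beside 8.12% and 8.49% of all genes). The edgeR fit of only the 6 depleted libraries called 6 higher and 7 lower (13.3% and 15.6%, beside 12.1% and 12.8% of the genes it tested). The median log2 fold change of the members was -0.18, with 17 of 45 above 0, against -0.03 and 47.9% for all genes tested. edgeR called 0 of the 45 in the same direction in both media, beside 2% of all genes tested. DESeq2 called 1 (PPT1; 2.22%, beside 3.42%), and 4 (LIPA, PPT1, CTNS and NPC1; 8.89%, beside 6.53%) had an unadjusted edgeR p under 0.05 in both. The direct test of the difference between media is given further on. The number called higher was 0 without depleted vehicle 1, depleted BafA1 2 or depleted BafA1 3 (beside 2.09%, 2.54% and 2.2% of all genes tested). It was 1 (2.22%) without depleted vehicle 3 (beside 2.99%). The number called lower was 1 (2.22%) without any 1 of the 6 depleted libraries or rich BafA1 2 (beside 2.51% to 4.9%).

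Under vehicle, depletion changed 13 of the 45 genes. LAMP3, IDUA, CLN3, CLCN7, CTNS, MAN2B1, TPP1, MANBA and SLC17A5 rose, and PPT1, GLA, GM2A and ARSB fell. The 9 that rose were 20.0% of the members, beside 15.5% of all genes tested, and the 4 that fell were 8.89%, beside 15.4%. Of the 45 genes 34 lay above 0, with a median log2 fold change of 0.24, against 52.4% and 0.04 for all genes tested, and 4 of the 9 that rose were channels or transporters. Without rich vehicle 2 the number that rose was 19 (42.2%, beside 16.7% of all genes tested), and without depleted vehicle 2 it was 5 (11.1%, beside 12.2%). Added without rich vehicle 2 were NEU1 (0.87), ARSA (1.05), SGSH (0.72), GAA (1.04), NAGLU (0.75), GALNS (0.59), ACP2 (0.52), SMPD1 (0.72), IGF2R (0.73) and TMEM175 (1.22).

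Under bafilomycin A1, depletion raised LAMP3 and the transporter or channel genes SLC17A5, CTNS, MCOLN1 and OSTM1. It lowered GM2A, PPT1, GLA, PLA2G15, IDS, NPC2 and CD63. The 5 that rose were 11.1% of the members, beside 10.5% of all genes tested, and the 7 that fell were 15.6%, beside 13.6%. The median log2 fold change was -0.01 on the members and 0.01 on all genes tested. The number that rose was 3 without rich BafA1 1 and 2 without rich BafA1 2 or depleted BafA1 2, and the number that fell was 3 without rich BafA1 1 or 2 or depleted BafA1 1 or 3.

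Over the 4 comparisons, edgeR called 21 of the 45 genes at least once (46.7%, beside 45% of all genes tested) and left 24 uncalled. Depletion called 19 of them in either treatment (42.2%, beside 42.2%) and bafilomycin A1 called 10 in either medium (22.2%, beside 20%). Between the 2 depletion comparisons, which share no library, GLA, PPT1, GM2A, LAMP3, CTNS and SLC17A5 were called in the same direction (6 of 45, or 13.3%, beside 12.2% of all genes tested). All of these shares were close to the background. Groups without overlap, described for single genes below, were common too. For depletion under vehicle, all depleted libraries lay above all rich ones for 23% of genes tested and below for 18.2%. Among members, 10 lay above and 4 below. Bafilomycin A1 gave 14.9% and 11.1% in rich medium (6 and 2 members) and 19.8% and 20.1% in depleted medium (5 and 9). Depletion under bafilomycin A1 gave 23.4% and 23.8% (8 and 10). Lack of overlap alone thus sets no member apart. Each bafilomycin A1 comparison shares 1 group of libraries with each depletion comparison, so values from such pairs are only set side by side.

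**Figure D2:**
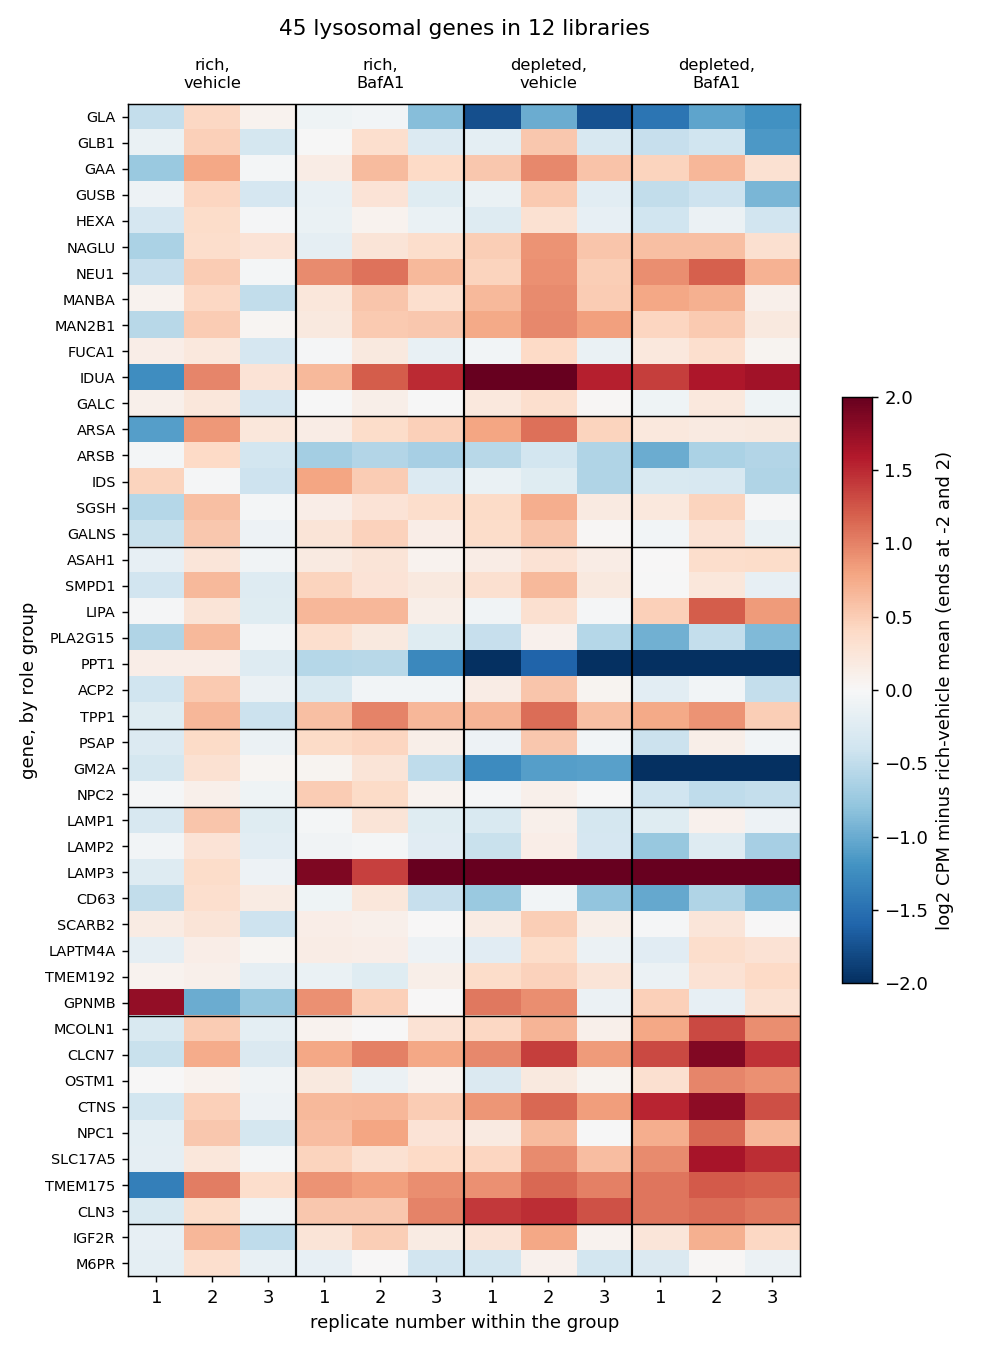
Level of each of the 45 genes (rows, in role groups parted by lines) in the 12 libraries (columns), as log2 CPM minus the mean log2 CPM of rich vehicle, with colours ending at -2 and 2. LAMP3 was the only row in which every library outside rich vehicle was over 1 above the rich-vehicle mean, and PPT1 and GM2A were the darkest blue rows in depleted BafA1.

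**Figure D3:**
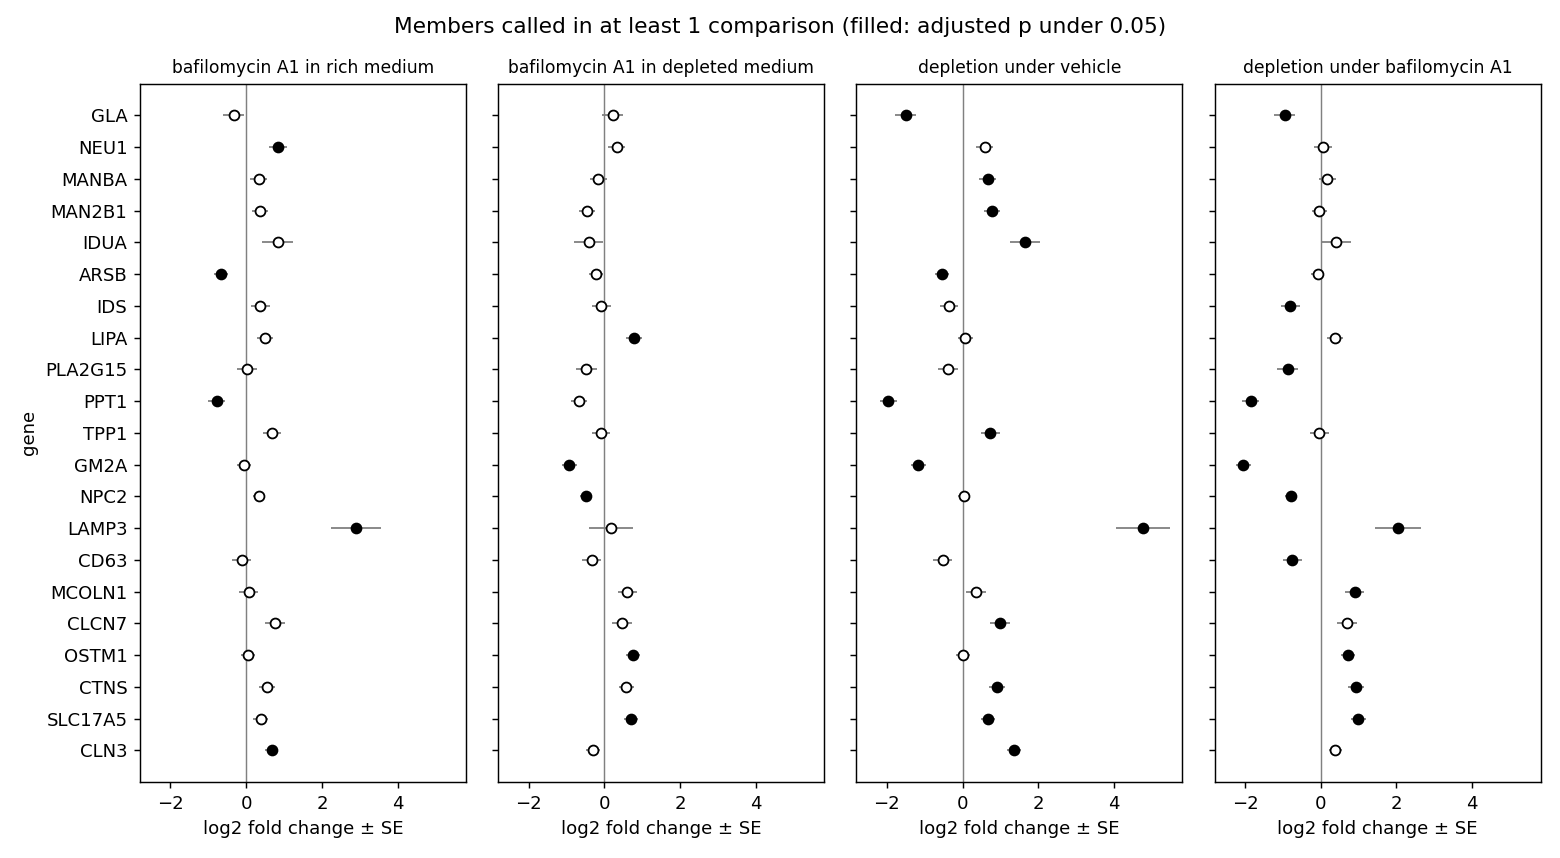
Log2 fold change (horizontal axis) with its SE (bars) of the 21 members called in at least 1 of the 4 comparisons, one panel per comparison. Filled points had an adjusted p under 0.05, and LAMP3 reached the highest value, 4.77 for depletion under vehicle.

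Among the 12 glycosidases, which cut sugars from glycoproteins, glycolipids and glycosaminoglycans, depletion under vehicle raised 3 and lowered 1. These were 25% and 8.33%, beside 15.5% and 15.4% of all genes tested. GLA, the alpha-galactosidase lost in Fabry disease, stood at 19.9, 36.6 and 28.9 CPM (reads of a gene per library size, scaled by TMM) in rich vehicle and 8.15, 13.9 and 8.28 CPM in depleted vehicle. All 3 depleted libraries lay below all 3 rich ones, and GLA fell from 28.5 ± 8.35 to 10.1 ± 3.30 CPM (mean ± SD, n = 3, as for the other means below; log2 fold change -1.50 with SE 0.28, adjusted p = 0.00097). With bafilomycin A1 its values were 26.1, 26.7 and 15.3 CPM in rich and 10.1, 13.3 and 12 CPM in depleted medium, again without overlap, with rich BafA1 3 close to the depleted libraries (log2 fold change -0.95 with SE 0.27, adjusted p = 0.02). That second call ended without rich BafA1 1 or 2 or depleted BafA1 1 or 3 (adjusted p 0.056 to 0.095).

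NEU1 encodes the sialidase that removes terminal sialic acid. It stood at 179.7, 350.2 and 241 CPM in rich vehicle, 476, 526 and 388 CPM in rich BafA1, 338, 468 and 347 CPM in depleted vehicle and 472, 569 and 400.2 CPM in depleted BafA1. The rich BafA1 libraries all lay above the rich vehicle ones, where number 2 was nearly as high as 1 treated library, and NEU1 rose (log2 fold change 0.85 with SE 0.24, adjusted p = 0.032). In depleted medium the treated and vehicle libraries overlapped (log2 fold change 0.32 with SE 0.23, adjusted p = 0.43). Depletion under vehicle gave 0.58, SE 0.24 (adjusted p = 0.073, or 0.047 by DESeq2). The call in rich medium ended without rich vehicle 1 or 3 or rich BafA1 1 or 2 (adjusted p 0.065 to 0.10), without rich vehicle 1 and rich BafA1 3 together (0.096) and in the fit of 6 libraries (0.10).

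MAN2B1, the lysosomal alpha-mannosidase, measured 32.4, 68.0 and 48.8 CPM in rich vehicle and 80.3, 92.9 and 84.0 CPM in depleted vehicle. The groups did not overlap and MAN2B1 rose from 49.8 ± 17.8 to 85.7 ± 6.45 CPM (log2 fold change 0.78 with SE 0.21, adjusted p = 0.011). Under bafilomycin A1 it was 54.6, 68.1 and 68.9 CPM in rich and 64.4, 68.2 and 54.7 CPM in depleted medium, which overlapped (-0.03, adjusted p = 0.93). MANBA, the beta-mannosidase that acts on the last sugar pair of N-glycans, measured 50.7, 64.4 and 34.3 CPM in rich vehicle and 75.9, 92.5 and 68.9 CPM in depleted vehicle. Every depleted library lay above every rich one, by little between rich vehicle 2 and depleted vehicle 3 (log2 fold change 0.67 with SE 0.22, adjusted p = 0.033). Its call ended without rich vehicle 1 or 3 or depleted vehicle 1 or 2 (adjusted p 0.062 to 0.12), without rich vehicle 1 and rich BafA1 3 together (0.074) and in the fit of 6 libraries (0.070). IDUA, the iduronidase that acts on dermatan and heparan sulfate, was the lowest glycosidase, with 0.595, 2.79 and 1.70 CPM in rich vehicle and 5.79, 6.76 and 4.17 CPM in depleted vehicle. It rose without overlap between the groups (log2 fold change 1.65 with SE 0.40, adjusted p = 0.0059), and the shallow rich vehicle 1 held the lowest of the 12 values. Its treated values were 2.21, 3.28 and 3.96 CPM in rich and 3.68, 4.35 and 4.53 CPM in depleted medium (0.41, adjusted p = 0.48).

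The other 7 glycosidases, GLB1, GAA, GUSB, HEXA, NAGLU, FUCA1 and GALC, were called in no comparison by edgeR, and DESeq2 called GUSB and NAGLU once each. GLB1, the acid beta-galactosidase, was at 257, 429 and 235 CPM in depleted vehicle and 214, 222 and 133 CPM in depleted BafA1, so that all 3 treated libraries lay below all 3 vehicle libraries (log2 fold change -0.70 with SE 0.28, adjusted p = 0.12). GUSB, the beta-glucuronidase, had a similar value in that comparison (log2 fold change -0.70 with SE 0.24, adjusted p = 0.073), with an adjusted p = 0.043 by DESeq2. NAGLU, which acts on heparan sulfate, was at 13.7, 27.1 and 25.7 CPM in rich vehicle and 29.9, 39.6 and 31.2 CPM in depleted vehicle, without overlap (log2 fold change 0.59 with SE 0.23, adjusted p = 0.066, or 0.046 by DESeq2). GAA, which breaks down glycogen, was at 42.1 ± 21.7 CPM in rich vehicle and 62.8 ± 10.7 CPM in depleted vehicle (log2 fold change 0.57 with SE 0.28, adjusted p = 0.13). Over the 12 glycosidases the median log2 fold change was 0.05 for bafilomycin A1 in rich medium, -0.20 in depleted medium, 0.37 for depletion under vehicle and 0.02 under bafilomycin A1.

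Of the 5 sulfatases, ARSB and IDS were each called, and only as lower. Each call was 1 of 5 (20%) in its comparison. Over all genes tested, 4.78% were called lower for bafilomycin A1 in rich medium, 15.4% for depletion under vehicle and 13.6% under bafilomycin A1. ARSB removes sulfate from dermatan and chondroitin sulfate. It measured 69.5, 94.7 and 55.7 CPM in rich vehicle, 44.7, 47.9 and 45.4 CPM in rich BafA1 and 48.6, 55.7 and 47.1 CPM in depleted vehicle. Rich vehicle 2 was the highest, and ARSB fell with bafilomycin A1 in rich medium (log2 fold change -0.67 with SE 0.18, adjusted p = 0.029) and with depletion under vehicle (log2 fold change -0.54 with SE 0.18, adjusted p = 0.035). Depleted BafA1 was at 36.0, 46.4 and 47.9 CPM, which overlapped rich BafA1. Without rich vehicle 2 the values were -0.44 and -0.30 and neither call held. The first call also ended without any 1 rich BafA1 library (adjusted p 0.067 to 0.092 over these exclusions), without rich vehicle 1 and rich BafA1 3 together (0.096) and in the fit of 6 libraries (0.10). The second ended without depleted vehicle 1 or 3 (0.098 to 0.16, rich vehicle 2 included) and in the fit of 6 libraries (0.099).

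IDS, the iduronate sulfatase, was at 177, 147 and 85.0 CPM in rich BafA1 and 83.5, 82.2 and 67.9 CPM in depleted BafA1. All depleted libraries lay below all rich ones, with rich BafA1 3 close to the highest of them (log2 fold change -0.81 with SE 0.25, adjusted p = 0.028). The call ended without rich BafA1 1 or 2 or any 1 depleted BafA1 library (adjusted p 0.058 to 0.16). Vehicle values were 139.6, 101 and 77.3 CPM in rich and 93.3, 87.0 and 67.4 CPM in depleted medium, which overlapped. IDS has a pseudogene nearby, so its reads may be split or shared. ARSA, SGSH and GALNS, which act on sulfatides, heparan sulfate and keratan sulfate, were called in no comparison, with log2 fold changes from -0.61 to 0.57, both of them of ARSA.

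Among the 7 hydrolases of lipids, phosphates, thioesters and peptides, PPT1 had the lowest fold changes. PPT1 removes fatty acids bound as thioesters to proteins, and its loss causes an infantile neuronal ceroid lipofuscinosis. It stood at 316, 318 and 241 CPM in rich vehicle, 195, 196 and 118 CPM in rich BafA1, 66.7, 95.6 and 63.0 CPM in depleted vehicle and 41.3, 55.1 and 45.4 CPM in depleted BafA1. The groups descended in that order with no overlap between neighbours. Depletion lowered it under vehicle, from 292 ± 43.7 to 75.1 ± 17.9 CPM (log2 fold change -1.96 with SE 0.23, adjusted p = 4.5e-05), and under bafilomycin A1, from 169.6 ± 44.8 to 47.3 ± 7.06 CPM (log2 fold change -1.84 with SE 0.22, adjusted p = 7.4e-05). Bafilomycin A1 lowered it in rich medium (log2 fold change -0.78 with SE 0.22, adjusted p = 0.033), and in depleted medium the value was -0.67 (SE 0.22, adjusted p = 0.061, or 0.036 by DESeq2). The responses to the drug in the 2 media differed by 0.11 on the log2 scale (SE 0.31, adjusted p = 0.87). Its drug call in rich medium ended without rich vehicle 1 or 2 or rich BafA1 3 (adjusted p 0.057 to 0.13), without rich vehicle 1 and rich BafA1 3 together (0.21) and in the fit of 6 libraries (0.094), while both depletion calls held in every alternative.

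LIPA, the acid lipase that splits cholesteryl esters and triglycerides, was at 76.2, 99.7 and 78.8 CPM in depleted vehicle and 111, 185 and 144 CPM in depleted BafA1. All treated libraries lay above all vehicle libraries, depleted BafA1 2 most of all (log2 fold change 0.79 with SE 0.21, adjusted p = 0.023). In rich medium it was 78.4, 95.6 and 67.4 CPM with vehicle and 127, 126 and 86.8 CPM with the drug, which overlapped (log2 fold change 0.49 with SE 0.21, adjusted p = 0.14). The call in depleted medium ended without depleted vehicle 1 or 3 or depleted BafA1 2 or 3 (adjusted p 0.068 to 0.13). PLA2G15, a lysosomal phospholipase, measured 56.3, 51.4 and 37.9 CPM in rich BafA1 and 23.1, 32.0 and 24.3 CPM in depleted BafA1. The depleted libraries were lower without overlap (log2 fold change -0.87 with SE 0.27, adjusted p = 0.029), and the call ended without rich BafA1 1 or 2 or depleted BafA1 1 or 3 (adjusted p 0.095 to 0.12). With vehicle, PLA2G15 ranged over 29.5, 70.4 and 43.1 CPM in rich and 32.7, 47.6 and 30.3 CPM in depleted medium, and the groups overlapped.

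TPP1, a peptidase that takes tripeptides from protein ends and is also a ceroid lipofuscinosis gene, was at 68.9, 129 and 60.8 CPM in rich vehicle and 130.2, 177 and 123 CPM in depleted vehicle. It rose (log2 fold change 0.73 with SE 0.25, adjusted p = 0.035) although rich vehicle 2 lay above depleted vehicle 3. Without rich vehicle 2 the log2 fold change was 1.15, and the call ended without rich vehicle 1 or 3 or depleted vehicle 1 or 2 (adjusted p 0.057 to 0.14), without rich vehicle 1 and rich BafA1 3 together (0.13) and in the fit of 6 libraries (0.093). With bafilomycin A1 it was 124, 162 and 129.6 CPM in rich and 138, 153 and 114 CPM in depleted medium, which overlapped. The ceramidase gene ASAH1, the sphingomyelinase gene SMPD1 and the acid phosphatase gene ACP2 were called in no comparison, with log2 fold changes from -0.50 for ACP2 to 0.32 for SMPD1.

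Among the 3 activator and lipid-binding proteins, GM2A and NPC2 were called, in each case lower. That was 2 of 3 for bafilomycin A1 in depleted medium, 1 for depletion under vehicle and 2 under bafilomycin A1. Over all genes tested, 5.91%, 15.4% and 13.6% were called lower in the same order. GM2A lifts GM2 ganglioside out of the membrane for hexosaminidase A. It measured 77.5, 122 and 101 CPM in rich vehicle, 102, 117 and 69.1 CPM in rich BafA1, 41.2, 46.0 and 46.3 CPM in depleted vehicle and 23.8, 24.9 and 21.4 CPM in depleted BafA1. The rich groups overlapped each other and lay above depleted vehicle, which lay above depleted BafA1. Depletion lowered GM2A under vehicle, from 100 ± 22.2 to 44.5 ± 2.88 CPM (log2 fold change -1.17 with SE 0.20, adjusted p = 0.00049), and under bafilomycin A1, from 96.1 ± 24.7 to 23.4 ± 1.75 CPM (log2 fold change -2.04 with SE 0.20, adjusted p = 1.9e-05). Bafilomycin A1 lowered it in depleted medium (log2 fold change -0.93 with SE 0.20, adjusted p = 0.0073), while in rich medium the value was -0.06 (SE 0.19). The difference between those drug responses was -0.87, SE 0.28, with an adjusted p = 0.074 by edgeR and 0.042 by DESeq2. All 3 GM2A calls held in every alternative and with each of the 12 libraries left out.

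NPC2 binds cholesterol in the lumen and hands it to NPC1. It was at 142, 155 and 135 CPM in rich vehicle, 203, 187 and 151 CPM in rich BafA1, 142, 155 and 143 CPM in depleted vehicle and 108, 101 and 103 CPM in depleted BafA1. Depleted BafA1 lay below every other library, and the vehicle groups overlapped. NPC2 fell with the drug in depleted medium (log2 fold change -0.49 with SE 0.14, adjusted p = 0.036) and with depletion under the drug, from 181 ± 26.6 to 104 ± 3.90 CPM (log2 fold change -0.80 with SE 0.14, adjusted p = 0.0012). The first call ended without rich BafA1 2 or any 1 of the 6 depleted libraries (adjusted p 0.054 to 0.13) and with no filter on low counts (0.094). PSAP ranged from 1093 to 2137 CPM and was called in no comparison, with its smallest adjusted p for depletion under the drug (log2 fold change -0.42 with SE 0.24, adjusted p = 0.22).

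**Figure D4:**
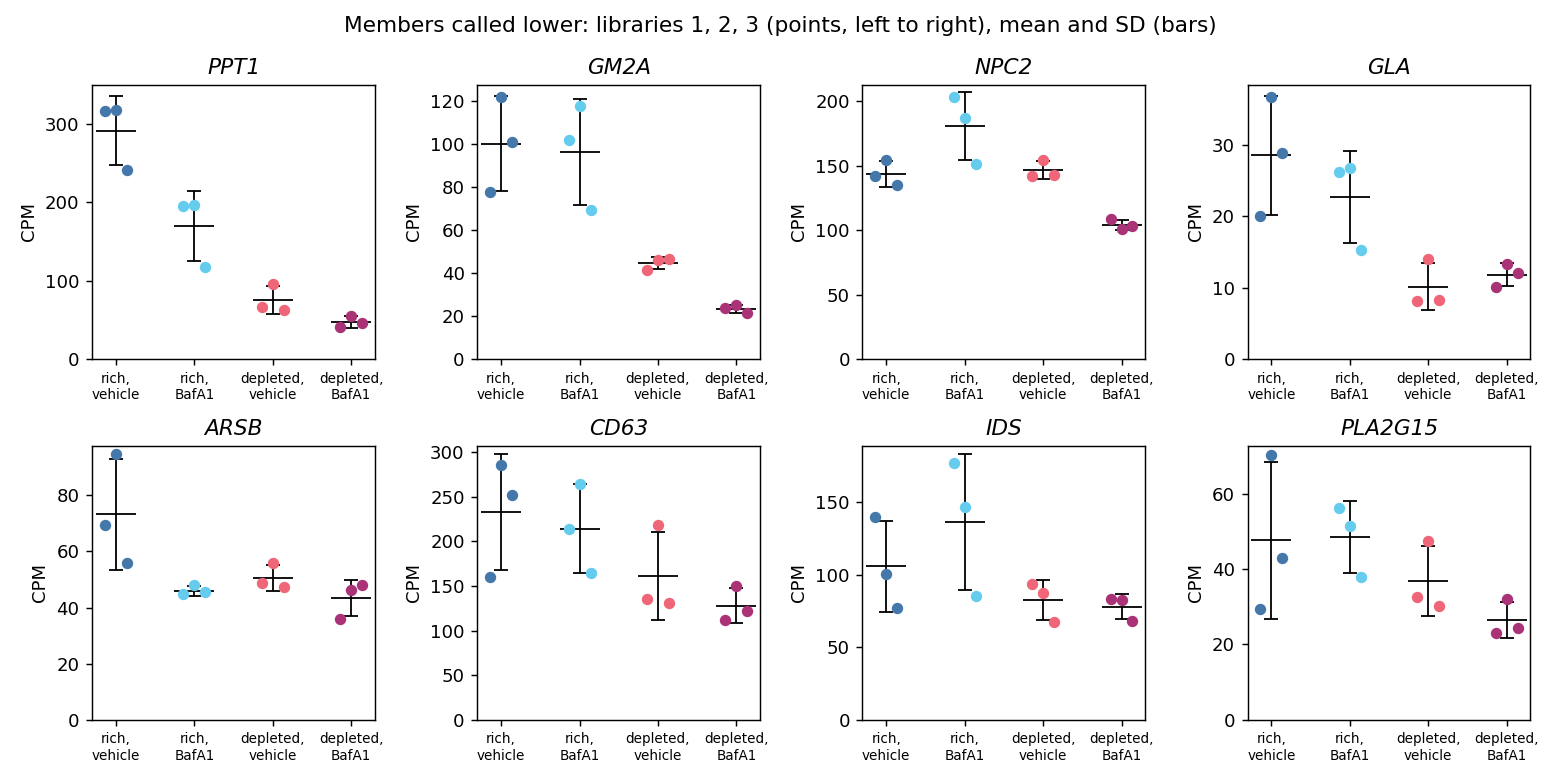
CPM of the 8 members called lower in at least 1 of the 4 comparisons, by group. Points are libraries 1, 2 and 3 from left to right, and bars are the mean and SD. PPT1 and GM2A were lowest in the 3 depleted BafA1 libraries, and NPC2 separated depleted BafA1 from the other 3 groups.

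Of the 8 structural and membrane glycoproteins, LAMP3 alone was called higher, in 3 comparisons, and CD63 alone was called lower, in 1. Each call was 12.5% of the 8, beside 6.15% to 15.5% of all genes tested called higher and 13.6% called lower. LAMP3 is a LAMP family protein first described in mature dendritic cells and known to be induced by hypoxia and endoplasmic reticulum stress. It stood at 2.08, 3.21 and 2.33 CPM in rich vehicle, 9.10, 6.43 and 42.8 CPM in rich BafA1, 55.0, 91.9 and 65.4 CPM in depleted vehicle and 62.1, 105 and 71.0 CPM in depleted BafA1. Every library outside rich vehicle was above all 3 rich vehicle libraries, and rich BafA1 3 was several times the other rich BafA1 libraries and below all depleted ones. Depletion raised LAMP3 under vehicle from 2.54 ± 0.592 to 70.8 ± 19.1 CPM (log2 fold change 4.77 with SE 0.71, adjusted p = 0.00075), a call that held in every alternative. Bafilomycin A1 raised it in rich medium (log2 fold change 2.90 with SE 0.67, adjusted p = 0.022), and without rich BafA1 3 the log2 fold change was 1.58. In depleted medium the vehicle and treated libraries overlapped (log2 fold change 0.16 with SE 0.58, adjusted p = 0.9). Depletion under bafilomycin A1 gave 2.03, SE 0.61 (adjusted p = 0.034), or 3.35 without rich BafA1 3. The drug call in rich medium ended without any 1 of the rich vehicle libraries (adjusted p 0.054 to 0.064) and in the fit of 6 libraries (0.079). The call for depletion under the drug ended without any 1 of 7 libraries (rich vehicle 2, rich BafA1 1 or 2, depleted vehicle 3 or any depleted BafA1; adjusted p 0.051 to 0.11) and in the fit of 6 libraries (0.14).

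The dendritic cell markers CD1C, CLEC9A, CCR7, FLT3, CD83 and ITGAX summed to 0.562 to 2.63 TPM in rich vehicle, 0.428 to 0.755 in rich BafA1, 0.421 to 0.525 in depleted vehicle and 0.236 to 0.356 in depleted BafA1, and CLEC9A was at 0 in all libraries. Of these 6 markers 0 averaged at least 1 TPM, so the sum is near the floor, and any link to LAMP3 was not tested.

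CD63, a tetraspanin of late endosomes and exosomes, was at 161, 286 and 252 CPM in rich vehicle and 214, 264 and 165 CPM in rich BafA1. In depleted medium it was 136, 219 and 131 CPM with vehicle and 111, 149.7 and 122 CPM with the drug. Depleted BafA1 lay below rich BafA1 in all libraries and CD63 fell (log2 fold change -0.75 with SE 0.25, adjusted p = 0.04), but the call ended without rich BafA1 1 or 2 or any 1 depleted BafA1 library (adjusted p 0.054 to 0.19). LAMP1 and LAMP2, the main proteins of the lysosomal membrane, were called in no comparison. LAMP1 measured 262, 479.6 and 276 CPM in rich vehicle, 319, 391 and 276 CPM in rich BafA1, 264, 348 and 255 CPM in depleted vehicle and 275, 345 and 304 CPM in depleted BafA1. All 4 groups overlapped, and the interval of 2 SE either side of its log2 fold change ran from -0.50 to 0.41 for the drug in rich medium and from -0.69 to 0.23 for depletion under vehicle. SCARB2, which carries glucocerebrosidase to the lysosome, LAPTM4A, TMEM192 and GPNMB were not called either, and GPNMB lay between 0.133 and 0.893 CPM.

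The 8 channels and transporters, which move ions and digestion products across the lysosomal membrane, had some members called higher in each of the 4 comparisons. Their median log2 fold change was 0.53 for bafilomycin A1 in rich medium, 0.58 in depleted medium, 0.68 for depletion under vehicle and 0.71 under bafilomycin A1. All 8 lay above 0 in 3 of these comparisons, and 7 of 8 for bafilomycin A1 in depleted medium, where CLN3 lay below. Over all genes tested, 51.7%, 47.9%, 52.4% and 50.9% lay above 0 in the same order. Called higher were 1, 2, 4 and 4 of the 8 (12.5%, 25%, 50% and 50%), beside 6.15%, 5.5%, 15.5% and 10.5% of all genes tested, and 0 were called lower by edgeR or DESeq2, nor had any an unadjusted p under 0.05 on that side. No test set this group apart from other genes.

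CLN3 is a lysosomal membrane protein whose loss causes juvenile neuronal ceroid lipofuscinosis. It stood at 37.0, 58.9 and 43.4 CPM in rich vehicle, 66.1, 66.5 and 90.4 CPM in rich BafA1, 122, 126 and 110.3 CPM in depleted vehicle and 96.1, 99.4 and 95.0 CPM in depleted BafA1. None of the 4 groups overlapped, with rich vehicle lowest, then rich BafA1, depleted BafA1 and depleted vehicle. Depletion under vehicle raised it from 46.4 ± 11.3 to 119 ± 8.10 CPM (log2 fold change 1.36 with SE 0.18, adjusted p = 9e-05), which held in every alternative, and bafilomycin A1 raised it in rich medium (log2 fold change 0.68 with SE 0.18, adjusted p = 0.024). In depleted medium the value was -0.30 (SE 0.18, adjusted p = 0.3), and for depletion under the drug 0.38 (SE 0.18, adjusted p = 0.13). The drug call in rich medium ended without rich vehicle 1 or 3 or rich BafA1 3 (adjusted p 0.054 to 0.12), without rich vehicle 1 and rich BafA1 3 together (0.19) and in the fit of 6 libraries (0.13).

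CTNS exports cystine from the lysosome. Its levels were 10.5, 18.9 and 12.7 CPM in rich vehicle, 21.3, 21.5 and 19.4 CPM in rich BafA1, 25.0, 30.2 and 24.3 CPM in depleted vehicle and 38.8, 46.7 and 33.3 CPM in depleted BafA1, with no overlap between neighbouring groups. Depletion raised it under vehicle (log2 fold change 0.91 with SE 0.21, adjusted p = 0.004) and under the drug (log2 fold change 0.94 with SE 0.20, adjusted p = 0.0042), both in every alternative. The drug values were 0.56, SE 0.21 in rich (adjusted p = 0.098) and 0.58, SE 0.20 in depleted medium (adjusted p = 0.078), and DESeq2 called the second (0.036). SLC17A5 exports sialic acid, which NEU1 releases. It was at 36.5, 48.6 and 40.4 CPM in rich vehicle, 56.8, 51.5 and 55.0 CPM in rich BafA1, 56.0, 79.9 and 63.7 CPM in depleted vehicle and 79.7, 130.3 and 116 CPM in depleted BafA1. Depletion raised it under the drug from 54.5 ± 2.69 to 109 ± 26.0 CPM (log2 fold change 1.00 with SE 0.19, adjusted p = 0.0017), in every alternative, and under vehicle (log2 fold change 0.67 with SE 0.19, adjusted p = 0.015). Bafilomycin A1 raised it in depleted medium (log2 fold change 0.71 with SE 0.19, adjusted p = 0.024), although depleted BafA1 1 lay just under depleted vehicle 2. The vehicle call ended without depleted vehicle 2 (adjusted p = 0.075) and without rich vehicle 1 and rich BafA1 3 together (0.055). The drug call ended without depleted vehicle 1 or 3 or depleted BafA1 2 or 3 (0.075 to 0.13).

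OSTM1 is the beta subunit of the chloride and proton exchanger encoded by CLCN7. Its levels were 42.3, 44.1 and 40.0 CPM in rich vehicle, 47.9, 38.8 and 44.1 CPM in rich BafA1, 34.6, 48.3 and 43.7 CPM in depleted vehicle and 52.5, 83.1 and 79.2 CPM in depleted BafA1. The first 3 groups shared one range and all depleted BafA1 libraries were above it. OSTM1 rose with the drug in depleted medium (log2 fold change 0.76 with SE 0.18, adjusted p = 0.014) and with depletion under the drug (log2 fold change 0.71 with SE 0.18, adjusted p = 0.01). The first call ended without depleted vehicle 1 or depleted BafA1 2 or 3 (adjusted p 0.070 to 0.083), the second without rich BafA1 2 or depleted BafA1 2 (0.059 to 0.061). CLCN7 itself measured 55.3, 126 and 61.9 CPM in rich vehicle, 129, 151 and 129 CPM in rich BafA1, 147, 196 and 136 CPM in depleted vehicle and 188, 272 and 205 CPM in depleted BafA1. Rich vehicle 2 stood close to the treated libraries and the other rich vehicle libraries well below. CLCN7 rose with depletion under vehicle (log2 fold change 0.98 with SE 0.26, adjusted p = 0.011), a call that ended without depleted vehicle 2 (adjusted p = 0.051) and without rich vehicle 1 and rich BafA1 3 together (0.055). For the drug in rich medium it was at 0.75, SE 0.26 (adjusted p = 0.08, or 0.042 by DESeq2), and for depletion under the drug at 0.70, SE 0.26 (adjusted p = 0.064, or 0.033 by DESeq2).

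MCOLN1, the TRPML1 calcium channel, was at 6.18, 5.94 and 7.22 CPM in rich BafA1 and 10.1, 14.7 and 11.3 CPM in depleted BafA1. It was higher in all depleted libraries (log2 fold change 0.90 with SE 0.25, adjusted p = 0.017), and the call ended without rich BafA1 1 or 2 or depleted BafA1 2 (adjusted p 0.066 to 0.095). With vehicle it was 4.76, 8.41 and 5.13 CPM in rich and 7.88, 9.41 and 6.36 CPM in depleted medium, which overlapped. NPC1, which moves cholesterol out of the lysosome, and TMEM175, a potassium and proton channel, were called in no comparison. NPC1 was at 73.9 ± 25.4 CPM in rich vehicle, 106 ± 18.6 CPM in rich BafA1, 87.3 ± 20.7 CPM in depleted vehicle and 129.7 ± 24.4 CPM in depleted BafA1, with drug values of 0.52, SE 0.24 and 0.57, SE 0.24 (adjusted p = 0.17 and 0.13). TMEM175 ranged from 1.94 CPM in the shallow rich vehicle 1 to 11.6 CPM in depleted BafA1 2.

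**Figure D5:**
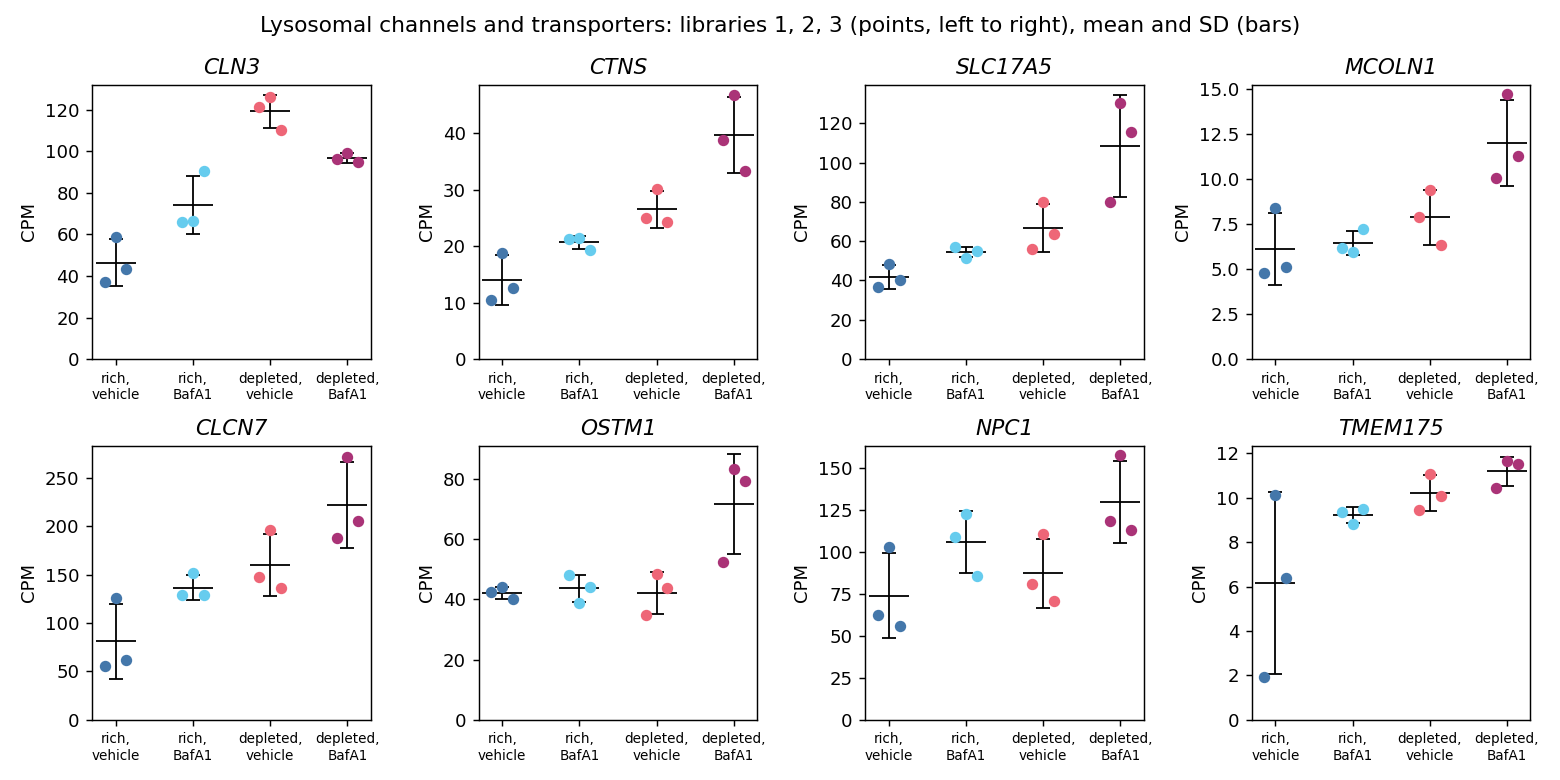
CPM of the 8 channels and transporters by group. Points are libraries 1, 2 and 3 from left to right, and bars are the mean and SD. CTNS and SLC17A5 had their lowest mean in rich vehicle and their highest in depleted BafA1, CLN3 was highest in depleted vehicle, and the OSTM1 points of depleted BafA1 lay above those of the other groups.

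Promoter letters are shown for the 6 called members that hold the E-box through which MiT/TFE factors act: CLN3, CLCN7, MCOLN1 and NEU1, called only higher in the 4 comparisons between groups, and ARSB and CD63, called only lower. LAMP1 is added as a gene called in no comparison. Each line runs 5′ to 3′ along the gene's strand (RefSeq, GRCh38.p14), with capitals marking the E-box CACGTG or the CLEAR core TCACGTGA that contains it.
CLN3, chr16:28492083-28492120, minus strand: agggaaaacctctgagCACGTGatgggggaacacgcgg
CLCN7, chr16:1475034-1475071, minus strand: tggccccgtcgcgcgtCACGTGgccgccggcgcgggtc
MCOLN1, chr19:7522566-7522605, plus strand: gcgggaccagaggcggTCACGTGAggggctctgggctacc
NEU1, chr6:31862926-31862963, minus strand: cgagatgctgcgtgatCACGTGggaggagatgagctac
ARSB, chr5:78986097-78986134, minus strand: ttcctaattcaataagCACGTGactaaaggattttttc
CD63, chr12:55729168-55729205, minus strand: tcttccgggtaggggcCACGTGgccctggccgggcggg
LAMP1, chr13:113297194-113297233, plus strand: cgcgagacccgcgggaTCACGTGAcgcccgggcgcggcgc

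The RefSeq table held promoters (250 bases before to 50 after a start) for 36 of the 45 genes and for 27305 genes in all. The CLEAR core, which reads the same on both strands, was found in 6 of the 36 (16.7%: GAA, GALNS, LAMP1, MCOLN1, CLN3 and IGF2R) and in 1.18% of all genes. The E-box, also its own reverse complement, was found in 11 of 36 (30.6%) and in 8.77% of all genes. The ATF4 composite core TGATGNAA, searched on both strands, was found in 1 of 36 (2.78%, M6PR) and in 4.46% of all genes. Of the 11 members with the E-box, 4 were called higher, 2 lower and 5 (GAA, GALNS, LAMP1, IGF2R and M6PR) in no comparison. Of the 25 without it, 7 were called higher, 6 lower and 12 in none. Of the 6 members with a CLEAR core, CLN3 and MCOLN1 were called in some comparison and GAA, GALNS, LAMP1 and IGF2R in none. A match is a description of letters in this window and was not tested against the fold changes.

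Both sorting receptors, IGF2R and M6PR, which bind mannose 6-phosphate on new hydrolases, were called in no comparison by edgeR or DESeq2 (0 of 2), and neither had an unadjusted p under 0.05. Without rich vehicle 2, edgeR called IGF2R higher for depletion under vehicle (log2 fold change 0.73, adjusted p = 0.023). IGF2R was at 363 ± 159 CPM in rich vehicle, 425 ± 51.4 CPM in rich BafA1, 451 ± 117 CPM in depleted vehicle and 473 ± 79.6 CPM in depleted BafA1. M6PR was at 326 ± 68.2, 285 ± 38.6, 280.3 ± 53.1 and 295 ± 31.1 CPM in the same order. Differences between the group means of both were smaller than the SD of rich vehicle.

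Across the 24 genes that edgeR called in none of the 4 comparisons, the highest group mean was 1.11 times (LAPTM4A) to 1.82 times (TMEM175) the lowest, with a median of 1.32, and it was under 1.5 times for 18 of them. Their log2 fold changes ran from -0.19 to 0.55 for bafilomycin A1 in rich medium, -0.70 to 0.57 in depleted medium, -0.23 to 0.69 for depletion under vehicle and -0.67 to 0.36 under bafilomycin A1. A missed threshold does not show that these genes did not differ.

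The last comparison asked whether the response to bafilomycin A1 differed between depleted and rich medium. NPC2 and CLN3 were called, both with a lower response in depleted medium (2 of 45, 4.44%, beside 3.83% of all genes). For NPC2 the drug's log2 fold change was 0.33 in rich and -0.49 in depleted medium, a difference of -0.82, SE 0.20 (adjusted p = 0.028). For CLN3 it was 0.68 and -0.30, a difference of -0.98, SE 0.25 (adjusted p = 0.032). No member was called with a higher response in depleted medium by edgeR (0 of 45, beside 2.35% of all genes) or DESeq2 (beside 4.94%). On that side 1 member, OSTM1, had an unadjusted edgeR p under 0.05 (0.71, SE 0.26), beside 1707 of the 18047 genes tested. LAMP3 had the lowest difference of all members, at -2.74, SE 0.88 (adjusted p = 0.097 by edgeR). DESeq2 called 4 members with a lower response (8.89%, beside 6.65% of all genes), NPC2, CLN3, LAMP3 (adjusted p = 0.034) and GM2A (0.042). The median over members was -0.28 with 13 of 45 above 0, against -0.05 and 46.6% for all genes tested. The count called lower was 8 without rich vehicle 2 (17.8%, beside 5.8% of all genes tested). It was 1 (2.22%) without rich BafA1 1 or depleted BafA1 1 (beside 2.75% and 2.85%). Without depleted vehicle 1, 2 or 3 or depleted BafA1 2 or 3 it was 0 (beside 1.39% to 2%). Called higher was 1 member without depleted BafA1 1 (2.22%, beside 1.45%). The NPC2 call ended without rich BafA1 1 or 2, any 1 depleted vehicle library or depleted BafA1 2 or 3 (adjusted p 0.065 to 0.078). That of CLN3 ended without rich BafA1 3 or any 1 of the 6 depleted libraries (0.064 to 0.082) and without rich vehicle 1 and rich BafA1 3 together (0.077).

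Beside the 45 genes, 53 of 54 other lysosomal genes were tested. Bafilomycin A1 raised 3 of them in rich medium (5.66%, beside 6.15% of all genes tested) and lowered 0. They were SLC66A1 (0.73 on the log2 scale), TMEM106B (0.57) and ACP5, which was listed at 0 in all rich vehicle libraries. ACP5 averaged 0.193 CPM in rich BafA1, 0.062 CPM in depleted vehicle and 0.571 CPM in depleted BafA1, so its calls rest on few reads. In depleted medium the drug raised 4 (7.55%, beside 5.5%) and lowered 5 (9.43%, beside 5.91%), among them ACP5, CPQ (-1.03) and RNASET2 (-1.0). Depletion under vehicle raised 13 (24.5%, beside 15.5%) and lowered 5 (9.43%, beside 15.4%), with SLC46A3 at 2.01, LAPTM4B at -1.49 and SLC29A3 at 1.16. Under the drug, depletion raised 5 (9.43%, beside 10.5%) and lowered 10 (18.9%, beside 13.6%), with SLC46A3 at 1.76, HPSE at -1.30 and LAPTM4B at -1.22. SLC46A3, SLC66A1 and SLC29A3 are solute carriers, RNASET2 a nuclease, HPSE the heparanase, CPQ a carboxypeptidase, and LAPTM4B and TMEM106B membrane proteins. Of 12 cathepsin and legumain genes tested, 1, 3, 2 and 4 fell in the 4 comparisons in the order above, CTSC in each. These were 8.33%, 25%, 16.7% and 33.3%, beside 4.78%, 5.91%, 15.4% and 13.6% of all genes tested. CTSO alone rose, in depletion under vehicle (1.38), which was 8.33% of the 12, beside 15.5%.

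Of the 4 MiT/TFE factor genes, TFEC was called in 2 of the 4 comparisons between groups and MITF in 1. TFEC was at 13.5, 7.99 and 12.6 CPM in rich vehicle, 11.4, 13.5 and 53.1 CPM in rich BafA1, 61.9, 63.2 and 82.5 CPM in depleted vehicle and 19.3, 17.4 and 16.5 CPM in depleted BafA1. It rose with depletion under vehicle (2.62, SE 0.49, adjusted p = 0.0017) and fell with the drug in depleted medium (-1.96, SE 0.47, adjusted p = 0.018), and rich BafA1 3 was again apart from its group. The difference between the TFEC drug responses in depleted and rich medium was also called, at -3.17. For TFEC no value without rich BafA1 3 is given. MITF rose with depletion under the drug (0.82, SE 0.18, adjusted p = 0.005). TFEB and TFE3 transcripts were not called, and the activity of these factors, which depends on where the protein lies in the cell, was not measured.

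By their spans in RefSeq's gene table, overlaps with another gene concern 23 of the 45, and 8 called ones overlap a protein-coding gene: GLA, IDUA, LIPA, PPT1, NPC2, CD63, CTNS and CLN3. No label or header names the strand setting of the counting, and reads in those stretches may belong to either gene.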

How the data were processed

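Total RNA from 12 Caco-2 libraries was depleted of ribosomal RNA and prepared with a stranded kit, per the labels' protocols. DRAGEN and GRCh38 are named in the submitters' processing notes, without version or role, and no header or label names the annotation release or strand setting. The authors deposited, for each library, estimated counts and TPM per gene, with lengths, per the file headers. Estimated counts, of which 5.08% were not whole, were rounded. TPM was used for levels and entered no test.

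Genes passing edgeR's filter (minimum count 10, minimum total 15) were scaled by TMM and fitted over all 12 libraries with 4 group means and 8 residual df (edgeR 4.0.16, limma 3.58.1, R 4.3.3, robust quasi-likelihood test). Calls had an adjusted p under 0.05 (Benjamini-Hochberg over 18047 genes). SE is the size of the log2 fold change divided by the square root of F, and CPM is TMM-scaled. The 5 comparisons were bafilomycin A1 in each medium, depletion under each treatment, and the difference between the drug responses. The code was tested on simulated data. No 2 libraries were identical, and 12969814 to 51649213 reads per library limit the precision of low genes such as IDUA and GPNMB.

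Alternatives were DESeq2 size factors in edgeR, the DESeq2 Wald test (1.42.0), no filter, only the 6 libraries compared, a replicate block, rich vehicle 1 and rich BafA1 3 left out together, and each of 12 libraries left out. The members and lists were chosen with earlier results of these data known. Named were all 45 members by role, with values for up to 12 called members per direction and comparison averaging at least 1 CPM, and up to 3 called genes of each other list by size of change. A second count table of the whole series was not used here.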

Additional observations from a re-analysis of the deposited data

Results flagged for a closer look

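Responses to bafilomycin A1 that differed between depleted and rich medium, by edgeR's test of the difference, were found for NPC2 (-0.82 on the log2 scale, SE 0.20, adjusted p = 0.028) and CLN3 (-0.98, SE 0.25, adjusted p = 0.032). NPC2, the luminal cholesterol carrier, was at 144 ± 10.1 and 181 ± 26.6 CPM (mean ± SD, n = 3) in rich vehicle and rich BafA1, and at 146 ± 7.11 and 104 ± 3.90 CPM in depleted vehicle and depleted BafA1. CLN3, the lysosomal membrane protein of juvenile ceroid lipofuscinosis, was at 46.4 ± 11.3 and 74.3 ± 13.9 CPM in rich medium and at 119 ± 8.10 and 96.8 ± 2.26 CPM in depleted medium. In rich BafA1 3, CLN3 stood at 90.4 CPM against 66.1 and 66.5 CPM in the other 2 libraries of that group, and the call ended without that library.

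On the deposited TPM scale, which is not TMM-scaled, the group means of NPC2 were 308 and 311 in rich vehicle and rich BafA1 and 237 and 205 in depleted vehicle and depleted BafA1. For CLN3 they were 40.1, 50.7, 77.8 and 78.6 TPM in the same order, so the lower mean of CLN3 in depleted BafA1 than in depleted vehicle appeared in CPM and not in TPM.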

How the results depend on the processing

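No member's called value changed sign in any alternative. Of 37 calls on members over the 5 comparisons, 14 held in every alternative and 23 did not, 10 of those only when a single library was left out. DESeq2, its size factors and the replicate block ended 0 of the 37, no filter ended 1, and the fit of 6 libraries and the removal of rich vehicle 1 and rich BafA1 3 together ended 9 each. Only the members' counts below differed from the reported ones by over 1.5 times, and their cause was not tested. The share of all genes called in the same setting stands beside each count. For bafilomycin A1 in rich medium, 3 higher became 5 with no filter (11.1%, beside 4.6%) and 8 with the replicate block (17.8%, beside 8.72%). In the fit of 6 libraries they became 0 (beside 1.75%). The 2 lower became 0 in that fit (beside 1.21%) and 0 without both libraries (beside 1.93%). In depleted medium, 3 higher became 5 with the block (11.1%, beside 7.93%) and 6 in the fit of 6 libraries (13.3%, beside 12.1%). The 2 lower became 4 by DESeq2 (8.89%, beside 8.49%) and 4 with no filter (8.89%, beside 4.87%). They became 5 with the block (11.1%, beside 8.77%) and 7 in the fit of 6 libraries (15.6%, beside 12.8%). For depletion under vehicle, 9 higher became 5 without both libraries (11.1%, beside 15.8%). For the interaction, 2 lower became 4 by DESeq2 (8.89%, beside 6.65%), 5 with no filter (11.1%, beside 3.87%) and 6 with the block (13.3%, beside 6.8%). The replicate numbers were not taken to pair the libraries, since same-numbered ones did not deviate together in every pair (correlations -0.08 to 0.29). They matched each other best in 4, 6, 5 and 2 of 6 libraries in the 4 comparisons, a hint from the data and not the design.

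With 1 library left out, counts higher and lower ran from 0 to 11 and 0 to 2 for bafilomycin A1 in rich medium, 0 to 4 and 1 to 3 in depleted medium, 5 to 19 and 3 to 5 for depletion under vehicle, 2 to 6 and 3 to 7 under bafilomycin A1, and 0 to 1 and 0 to 8 for the interaction. Counts over all genes moved too. For bafilomycin A1 they ran from 655 to 1417 and 357 to 1239 in rich medium, and 388 to 1551 and 468 to 1523 in depleted medium. For depletion they ran from 1916 to 3105 and 1832 to 2970 under vehicle, and 891 to 2554 and 1455 to 2945 under bafilomycin A1. For the interaction they ran from 126 to 766 and 259 to 1078. DESeq2 size factors moved the median of all genes by at most 0.03 on the log2 scale. Over the 4 comparisons between groups, log2 fold changes had an SE of 0.68 to 0.72 for GPNMB, 0.58 to 0.71 for LAMP3 and 0.38 to 0.40 for IDUA, at means of 0.379, 43 and 3.65 CPM. Changes well above 1 SE could still be missed. For bafilomycin A1 in rich medium, the IDUA value of 0.83 (SE 0.40) had an edgeR adjusted p = 0.2.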

Other observations

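Among other lysosomal genes, the arylsulfatase gene ARSK and MFSD8, which encodes the lysosomal membrane protein CLN7, rose with bafilomycin A1 in depleted medium (0.84 and 0.80 on the log2 scale, adjusted p = 0.0092 and 0.0065), with depletion under vehicle (0.74 and 0.64, adjusted p = 0.008 and 0.0096) and with depletion under the drug (1.17 and 1.13, adjusted p = 5e-04 and 0.00029). MFSD8 averaged 14.4 ± 1.80 CPM in rich vehicle, 17.8 ± 0.611 CPM in rich BafA1, 22.4 ± 3.47 CPM in depleted vehicle and 38.9 ± 4.46 CPM in depleted BafA1 (SD, n = 3). Both genes were singled out after their values were seen. CTSB, the cathepsin B gene, was at 315.9, 312, 314 and 151 CPM on average in the same order, and the difference between its drug responses was called (-1.04, SE 0.29, adjusted p = 0.044).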
